A study of Mus musculus with 12 samples.

Results

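The genes of the MHC class II system were described across RNA-seq libraries of mouse lymph nodes. The members were a named list of 10 genes, looked up by symbol among the 55487 gene identifiers of the deposited count table. All 10 were found, and all 10 had enough counts to be tested. They are the chains of the classical class II molecules (H2-Aa, H2-Ab1 and H2-Eb1), the invariant chain (Cd74), the class II transactivator (Ciita), the peptide editor H2-DM (H2-DMa, H2-DMb1 and H2-DMb2) and its partner and inhibitor H2-O (H2-Oa and H2-Ob). The study crossed a tumour with inhibition of nerves. T mice carried B16F10 cells, a mouse melanoma line, in the tongue, which NT mice lacked. In NDE mice the pain-sensing (nociceptive) nerves that supply the tumour-draining lymph node were inhibited, and in NC mice they were not. Nodes of T NDE, T NC, NT NDE and NT NC mice gave 3 libraries each, 12 in all. The 3 libraries of a group are independent biological repeats by the labels, which give neither strain nor age of the mice, nor the means of inhibition, nor whether a library holds 1 node or a pool.

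Class II molecules display peptides from endocytosed protein to CD4 T cells, and B cells, dendritic cells and macrophages carry them. The alpha and beta chains assemble in the endoplasmic reticulum on the invariant chain, which blocks the groove and directs the complex to endosomes. There the invariant chain is cut down to a short peptide, CLIP, which H2-DM exchanges for other peptides, while H2-O, made mainly by B cells, holds H2-DM back. Transcription of these genes depends on CIITA, which does not bind DNA itself but docks on factors bound to the X and Y boxes of class II promoters. Ciita has separate promoters for dendritic cells, for B cells and for cells exposed to interferon gamma, and a count per gene does not separate them.

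Of the 10 genes, 8 lie in the MHC on chromosome 17 of mm10, by GENCODE M21. In order of position these are H2-Oa (34092340 to 34095234), H2-DMa (34119541 to 34139101), H2-DMb2 (34143307 to 34151555), H2-DMb1 (34153072 to 34160230), H2-Ob (34238903 to 34254414), H2-Ab1 (34257689 to 34269419), H2-Aa (34282744 to 34287823) and H2-Eb1 (34305867 to 34316674). H2-Aa is on the minus strand and the other members are on the plus strand. Ciita lies on chromosome 16 (10480059 to 10528418).

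Results of a search for the X and Y boxes are given for promoters of 7 members, and not for H2-Ab1, Ciita and Cd74. The 6 promoters with a match are shown. Whether these boxes bear on how the members' levels varied across libraries, described further down, was not tested. Each window of 80 bases is from the RefSeq promoter table (GRCm38.p6) and is written 5′ to 3′ on the strand of the gene. Capitals mark matches of the Y box letters TGATTGG and of the X box letters AACNNATGATG. The X box letters are the consensus of H2-Eb1, H2-DMb1, H2-DMb2 and H2-Ob around the shared ATGATG, with N where these 4 differ, and the Y box letters were chosen after these promoters had been seen. Both strings were searched on both strands.
H2-Aa: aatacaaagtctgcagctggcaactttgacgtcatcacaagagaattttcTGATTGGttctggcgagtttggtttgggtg
H2-Eb1: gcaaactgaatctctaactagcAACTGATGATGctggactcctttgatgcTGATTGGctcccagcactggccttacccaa
H2-DMb1: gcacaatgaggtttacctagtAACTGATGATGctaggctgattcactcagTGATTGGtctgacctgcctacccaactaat
H2-DMb2: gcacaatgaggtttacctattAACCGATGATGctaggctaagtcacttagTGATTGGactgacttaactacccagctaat
H2-Oa: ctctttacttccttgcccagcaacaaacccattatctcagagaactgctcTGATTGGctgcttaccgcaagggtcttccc
H2-Ob: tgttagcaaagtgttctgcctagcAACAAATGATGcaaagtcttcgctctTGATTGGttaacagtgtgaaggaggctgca

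The windows are chr17:34287844-34287923 for H2-Aa (minus strand) and, on the plus strand, chr17:34305756-34305835 for H2-Eb1, chr17:34153078-34153157 for H2-DMb1, chr17:34145107-34145186 for H2-DMb2, chr17:34092284-34092363 for H2-Oa and chr17:34238796-34238875 for H2-Ob. Counted from the RefSeq start of each promoter, the Y box letters began at -50 in H2-Aa, -61 in H2-Eb1, -63 in H2-DMb1, -92 in H2-DMb2, -45 in H2-Oa and -59 in H2-Ob. These starts are not those of the GENCODE spans given above. The windows of H2-DMb1 and H2-DMb2 lie inside the GENCODE spans of these genes, and that of H2-Oa lies partly inside. Between the X and Y box letters lay 17 bases in H2-Eb1, 18 in H2-DMb1, 18 in H2-DMb2 and 15 in H2-Ob. Of 32851 promoters of the table, each of the same length, 7.82% held the Y box letters, 0.137% the X box letters and 0.0274% both. The 4 promoters that gave the X box letters hold them by construction. Those with both were 9 promoters, of H2-DMb1, H2-DMb2, H2-Ob, H2-Eb1, Spsb3, Nubp2 and Gm38969. Neither string was found in the 2 windows of H2-DMa. A match of letters describes the sequence and is no measurement of binding.

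Libraries held 16862953 to 24467873 counts, and each member held between 1724 counts (H2-Oa) and 80183 counts (Cd74) in any library, so that counting error was small beside the spread between libraries. Transcripts of salivary gland set 3 libraries apart. Markers of that gland made up 4.12% of T NDE replicate 3, 2.98% of NT NC replicate 3 and 0.151% of NT NC replicate 2, but at most 0.00621% of the other 9 libraries. Its part in the class II values was not tested, and values without these libraries are given beside the results. B cell, T cell, dendritic cell and macrophage markers were present in every library, with no defining marker of these lists at 0 throughout, while the melanocyte list summed to at most 2.49 CPM (counts scaled to library size, with TMM factors).

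Class II transcripts were abundant. Together the 10 genes took 1.10%, 1.05% and 0.860% of all counts in the T NDE libraries, 1.02%, 0.936% and 1.16% in T NC, 1.10%, 0.985% and 0.993% in NT NDE, and 0.976%, 1.03% and 0.940% in NT NC. The groups overlapped throughout, with means of 1.00% ± 0.126 in T NDE, 1.04% ± 0.111 in T NC, 1.03% ± 0.0660 in NT NDE and 0.981% ± 0.0439 in NT NC (SD, n = 3 each). The 95% Wilson interval of the lowest library, T NDE replicate 3, ran from 0.856% to 0.863%, and that of the highest, T NC replicate 3, from 1.15% to 1.16%. These intervals cover counting error only. In bulk tissue, fewer cells of a type and less RNA per cell cannot be told apart.

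Levels of different genes were compared per kilobase of the principal transcript. Cd74 led with 2317 ± 204 CPM per kb (SD over 12 libraries), followed by the classical chains H2-Aa with 1623 ± 112, H2-Ab1 with 1336 ± 112 and H2-Eb1 with 877 ± 67.8 CPM per kb. The loading genes were lower. H2-Ob had 266 ± 28.0, H2-DMb2 227 ± 22.6, H2-DMa 109 ± 7.30, H2-Oa 94.6 ± 7.55 and H2-DMb1 91.6 ± 9.13 CPM per kb, and the transactivator Ciita had 83.4 ± 8.15 CPM per kb. Among neighbours in this order, the ranges over 12 libraries overlapped between H2-Aa and H2-Ab1, between H2-Ob and H2-DMb2, and from one to the next among H2-DMa, H2-Oa, H2-DMb1 and Ciita, though the mean of H2-DMa lay above the highest library of H2-Oa. The order rests on the length used. Per kilobase of all annotated exons joined, H2-Eb1 (753) stood above H2-Ab1 (631) and H2-Aa (482), H2-DMb2 (185) above H2-Ob (132), and H2-DMa was lowest (52.4), while Cd74 remained the highest with 1945 CPM per kb.

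**Figure D1:**
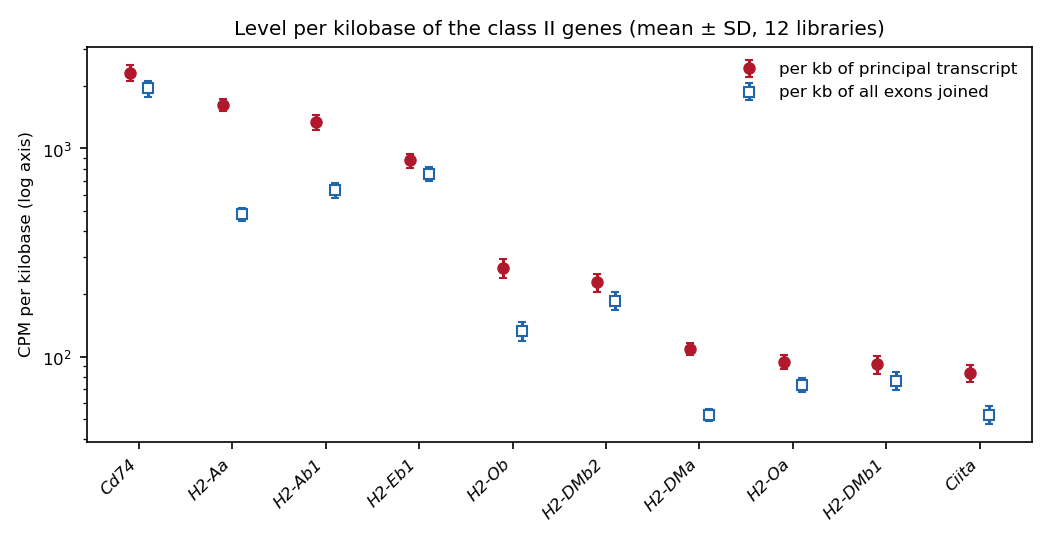
Mean level of each class II gene in CPM per kilobase over 12 libraries (log axis), with bars of 1 SD. Filled points divide by the principal transcript and open squares by all annotated exons joined; Cd74 is highest on both, with 2317 and 1945 CPM per kb.

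Some of these values cannot be assigned with certainty. H2-DMb1 and H2-DMb2, which encode alternative beta chains of H2-DM, have principal transcripts identical at 94.4% of 1255 aligned bases, with a longest identical run of 221 bases. Of all stretches of 100 bases, 13.7% of those of H2-DMb1 and 13.5% of those of H2-DMb2 occur in another gene, so their split depends on how shared reads were counted. H2-DMa overlaps Brd2 on the opposite strand over 3094 bases, Ciita overlaps Dexi over 25888 bases and H2-Oa lies within BC051537 over 2895 bases. The strand setting is not given in the sources used here, so reads of such partners cannot be told apart. Of the stretches of H2-Oa, 13.7% are shared with BC051537. H2-Aa, H2-Ab1, H2-Eb1, Cd74 and H2-Ob share no stretch of 100 bases with another gene. H2-Eb1 nevertheless overlaps Gm20513 on the opposite strand over 2204 bases, and Cd74 overlaps Mir5107 on the same strand over 88 bases. In total over the 12 libraries Gm20513 held 439 counts and Mir5107 held 413. Of the partners named above, BC051537 held 644 and Dexi 6316 counts in total. Brd2 held far more, 96457 in total, where H2-DMa held 3031 to 4524 counts per library.

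The libraries of the classical chains overlapped between the groups, with 1 exception. H2-Aa, the alpha chain of the I-A molecule, had 1923, 1785 and 1601 CPM in T NDE nodes, 1947, 1682 and 2042 CPM in T NC nodes, 1912, 1747 and 1747 CPM in NT NDE nodes, and 1827, 1931 and 1828 CPM in NT NC nodes. H2-Ab1, its beta chain, had 1730.0, 1669 and 1421 CPM in T NDE nodes, 1641.5, 1475 and 1871 CPM in T NC nodes, 1831, 1583.5 and 1572 CPM in NT NDE nodes, and 1565, 1538 and 1533 CPM in NT NC nodes. H2-Eb1, the beta chain of I-E, had 1563, 1505 and 1288.5 CPM in T NDE nodes, 1547, 1336 and 1703 CPM in T NC nodes, 1520.2, 1409 and 1433 CPM in NT NDE nodes, and 1436, 1455 and 1364 CPM in NT NC nodes. For each of these chains T NDE replicate 3 was the lowest library and T NC replicate 3 the highest, so the tumour groups spanned the whole range and the NT NC libraries lay inside it. H2-Ab1 gave the exception, the only one among the 10 members in the 4 comparisons of 2 groups: all 3 NT NDE libraries were above all 3 NT NC libraries. That is 1 of 10 members, where 9.71% of the 17301 tested genes were without overlap and higher in that comparison and 9.18% lower. The corresponding shares, higher and lower, were 7.78% and 7.23% for T NC against NT NC, 4.55% and 4.6% for T NDE against T NC, and 4.1% and 4.33% for T NDE against NT NDE, each with 0 members. For H2-Ab1 in NT NDE against NT NC the fitted log2 fold change was 0.11 (95% interval -0.09 to 0.30, edgeR adjusted p = 0.740). The alpha chain of I-E was nearly without counts and could not be compared. The pseudogene H2-Ea-ps, listed in the annotation in its place, held 1, 4, 4 and 4 counts in total in the 3 libraries of T NDE, T NC, NT NDE and NT NC. H2-Eb1 held 25527 to 37824 counts per library. Whether its product was part of an I-E molecule in these nodes was not measured.

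Cd74, the invariant chain gene (mm10 chromosome 18, 60803848 to 60812652), had 3410.2, 3509 and 2914 CPM in T NDE nodes, 3280.1, 2932 and 3739 CPM in T NC nodes, 3759, 3166 and 3214 CPM in NT NDE nodes, and 3045, 3220.0 and 3008 CPM in NT NC nodes. Its highest library was NT NDE replicate 1 and its lowest again T NDE replicate 3, and every pair of groups overlapped. Ciita had 572, 514 and 432 CPM in T NDE nodes, 464, 450.1 and 577 CPM in T NC nodes, 519, 472 and 506.5 CPM in NT NDE nodes, and 453, 557 and 499 CPM in NT NC nodes. The group means of Ciita lay closer together than the libraries of any group, and all groups overlapped.

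The libraries of the peptide editor genes overlapped between all groups. H2-DMa, the alpha chain of H2-DM, had 188, 182 and 162 CPM in T NDE nodes, 185, 169 and 203 CPM in T NC nodes, 199, 179.9 and 174 CPM in NT NDE nodes, and 170.5, 184 and 172 CPM in NT NC nodes. H2-DMb1 had 141, 135 and 124 CPM in T NDE nodes, 111, 121 and 149.5 CPM in T NC nodes, 147, 121 and 127 CPM in NT NDE nodes, and 110.4, 134 and 122 CPM in NT NC nodes. H2-DMb2, the more abundant beta chain per kilobase, had 383, 348 and 279 CPM in T NDE nodes, 299, 298 and 364 CPM in T NC nodes, 348, 307 and 328 CPM in NT NDE nodes, and 287, 328 and 313 CPM in NT NC nodes. For H2-DMb2 the T NDE group held both the highest and the lowest of the 12 libraries.

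The inhibitor genes varied most among the libraries of T NDE. H2-Oa, the alpha chain of H2-O, had 116, 110.2 and 85.8 CPM in T NDE nodes, 106, 101 and 108 CPM in T NC nodes, 107, 96.9 and 95.7 CPM in NT NDE nodes, and 97.0, 109.9 and 101 CPM in NT NC nodes. H2-Ob, its beta chain, had 850.3, 688.5 and 596 CPM in T NDE nodes, 646, 685.5 and 786 CPM in T NC nodes, 711, 676.5 and 709.9 CPM in NT NDE nodes, and 671.5, 829.9 and 678 CPM in NT NC nodes. The ratio of the highest to the lowest library was 1.43 for H2-Ob, the widest of the 10, and 1.25 for H2-DMa, the narrowest. The coefficient of variation over 12 libraries ran from 6.69% (H2-DMa) to 10.5% (H2-Ob). T NDE replicate 3 was the lowest library for 9 of 10 members, the exception being H2-DMb1 with NT NC replicate 1. T NC replicate 3 was the highest for 6 members, T NDE replicate 1 for 3 and NT NDE replicate 1 for 1.

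**Figure D2:**
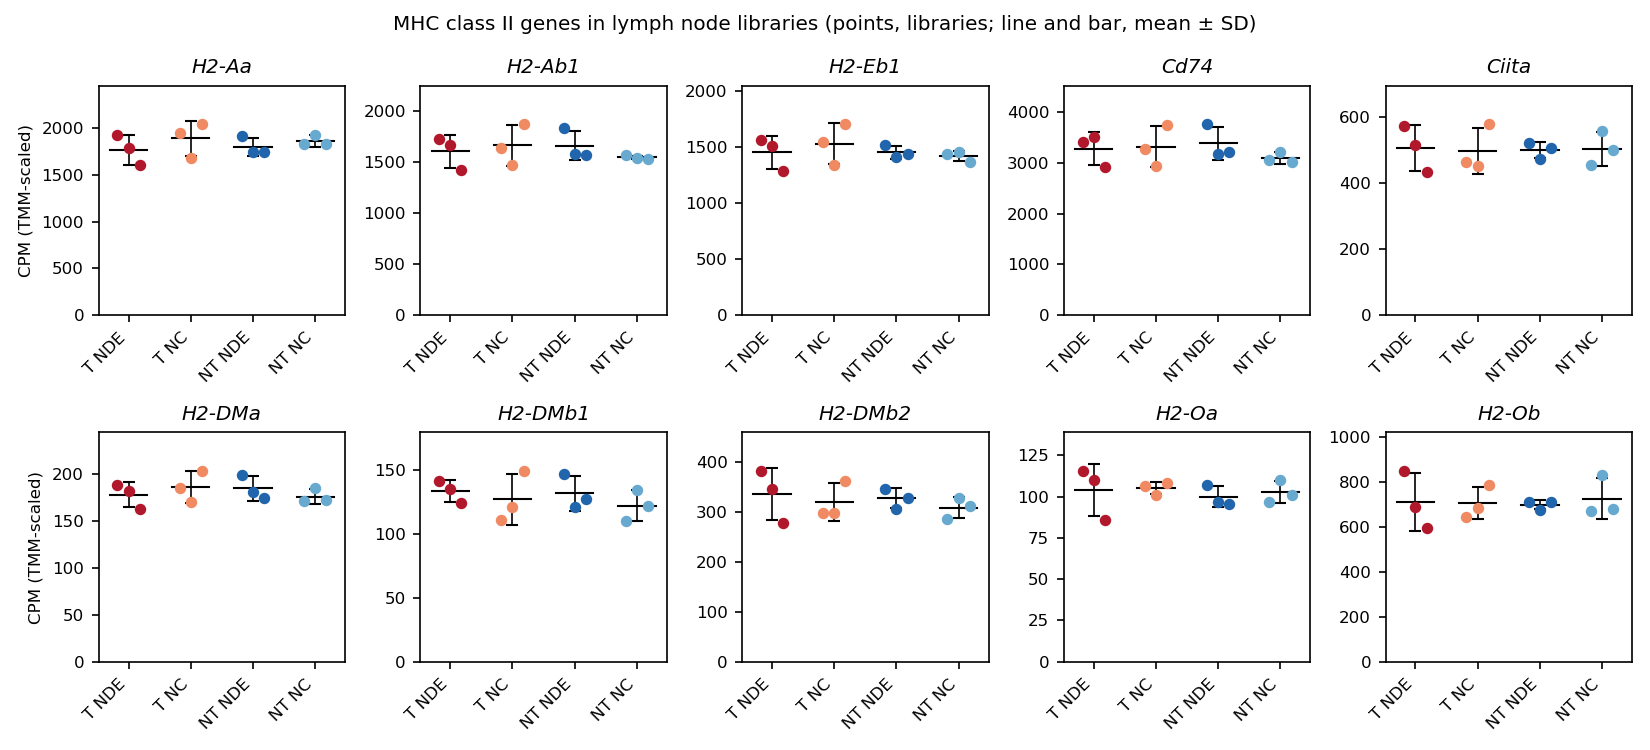
Level of each class II gene in CPM (linear axes from 0) in T NDE, T NC, NT NDE and NT NC; each point is 1 library, and the line and bar give the mean and 1 SD of 3 libraries. The groups overlap except that all 3 NT NDE libraries of H2-Ab1 are above the 3 NT NC libraries.

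With nerves left intact, class II genes did not pass the test between nodes of tumour-bearing and tumour-free mice. Of the 10 members 0 were called in T NC against NT NC by edgeR's quasi-likelihood test at an adjusted p of 0.05, where percent called over all 17301 genes was 0, and 0 had an unadjusted p under 0.05, against 7.8% of all genes. DESeq2 and limma-voom also called 0 members, here and in each comparison below. Log2 fold changes ran from -0.04 (H2-Ob) to 0.11 (H2-Eb1), with 8 positive and a median of 0.05 beside -0.01 over all genes. The smallest adjusted p of a member was 0.768. The 95% intervals of the 10 members, as percent change in T NC relative to NT NC, reached from -18.9% to 23.7%. Leaving out 1 library took the median to between -0.00479, when T NC replicate 3 was dropped, and 0.10, when it was T NC replicate 2, and dropping NT NC replicate 1 gave 0.00473. Without the 3 salivary libraries, which leaves NT NC with 1 library, it was 0.13.

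In tumour-bearing mice, inhibition of the nerves went with no called member either. In T NDE against T NC, 0 of 10 members passed (0% of all genes) and 0 had an unadjusted p under 0.05 (5.83% of all genes). Log2 fold changes ran from -0.10 (H2-Aa) to 0.07 (H2-DMb2). The classical chains H2-Aa, H2-Ab1 and H2-Eb1 had values of -0.10, -0.05 and -0.07 and Cd74 of -0.02, against 0.07 for both H2-DMb1 and H2-DMb2. The median was -0.02 beside 0.01 over all genes, the smallest adjusted p 0.917, and the intervals reached from -17.1% to 23.9%. Single libraries moved the median both ways. It was -0.11 without T NDE replicate 1, -0.07 without T NDE replicate 2 and -0.08 without T NC replicate 2, but 0.08 without T NDE replicate 3, 0.05 when T NC replicate 3 was dropped, and 0.08 with all 3 salivary libraries left out.

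In tumour-free mice inhibition of the nerves likewise went with no called member. In NT NDE against NT NC, 0 of 10 members were called (0% of all genes) and 0 had an unadjusted p under 0.05 (10.4% of all genes). Cd74 had the highest log2 fold change, 0.13 (95% interval -0.08 to 0.33, adjusted p = 0.686), and H2-Ob the lowest, -0.06 (-0.32 to 0.21, adjusted p = 0.909). Ciita was at -0.01 (-0.26 to 0.24). The members' median was 0.05 beside 0.00 over all genes, 0.10 without the 3 salivary libraries, and between 0.00667 (without NT NDE replicate 1) and 0.09 (without NT NC replicate 2) with 1 library left out. The intervals reached from -19.7% to 27.0%.

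Between tumour-bearing and tumour-free mice with inhibited nerves, T NDE against NT NDE, again 0 of 10 members were called, where 0.00578% of all genes were, and 0 had an unadjusted p under 0.05 (3.7% of all genes). Log2 fold changes ran from -0.05 (H2-DMa) to 0.06 (H2-Oa), with a median of 0.01 beside 0.00 over all genes, and the intervals reached from -15.9% to 22.0%. The median was -0.08 without T NDE replicate 1 and 0.08 without T NDE replicate 3, and it also lay below 0 without T NDE replicate 2 (-0.0108), NT NDE replicate 2 (-0.0285) or NT NDE replicate 3 (-0.00702). These comparisons share libraries in pairs, so their values are not independent of each other.

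**Figure D3:**
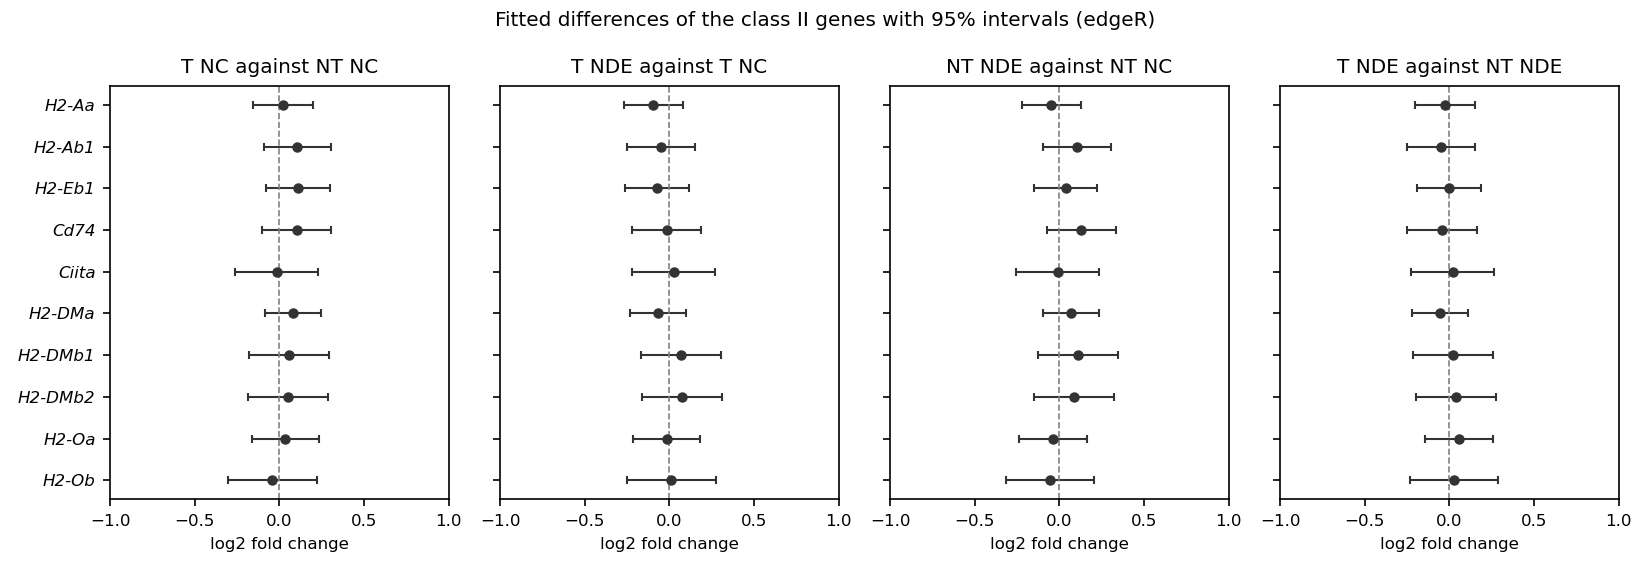
Fitted log2 fold change of each class II gene (points) with its 95% interval (bars) from edgeR in 4 comparisons of 2 groups, with the group named first on top of the fold change. Every interval includes 0 and the points lie between -0.10 and 0.13.

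The interaction, the nerve effect with a tumour minus that without, was not called for any member (0 of 10, with 0% of all genes called, 0 members at an unadjusted p under 0.05 and 7.11% of all genes). H2-Ab1 had the lowest value, -0.15 (95% interval -0.44 to 0.13), and H2-Ob the highest, 0.07 (-0.30 to 0.44). Averaged over both tumour states, NDE against NC gave values from -0.07 (H2-Aa) to 0.09 (H2-DMb1), with 0 members called where 0.0983% of all genes were, and 0 at an unadjusted p under 0.05 (9.2% of all genes). This is the narrowest estimate of the nerve comparison, and its intervals reached from -13.3% to 19.5%. Averaged over both nerve states, T against NT gave values from -0.01 (H2-Ob) to 0.05 (H2-Eb1), again with 0 members called (0% of all genes) and 0 at an unadjusted p under 0.05 (4.5% of all genes). Those intervals reached from -12.5% to 15.7%. These intervals bound the size of a change in each gene. They do not show that the levels were equal.

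The averaged nerve comparison did call genes for interferon-inducible GTPases, which interferon gamma induces along with Ciita in many cells. Gbp4 stood at 142 ± 6.99 CPM in T NDE nodes, against 167 ± 21.1 CPM in T NC nodes, and at 132 ± 9.62 CPM in NT NDE nodes, against 185 ± 14.2 CPM in NT NC nodes (SD, n = 3 each), a log2 fold change of -0.36 averaged over tumour state (edgeR adjusted p = 0.0492). Gbp6 had an averaged log2 fold change of -0.67 and Tgtp1 of -0.58 (edgeR adjusted p = 0.0440 for both). In the same fit Ciita was at 0.01 with an interval from -0.17 to 0.18, and Cd74 at 0.06 (-0.09 to 0.20). The 3 GTPase genes were chosen for mention after their values were known, and the difference between them and Ciita was not tested. The calls of this comparison rest on few libraries. With all libraries 17 genes were called. The total over all genes was between 0 and 30 after leaving out 1 library, and 1 with a replicate block. These totals do not say which of the 17 were called again.

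Genes that lead to Ciita gave no call in edgeR. Of 8 tested genes of the route from interferon gamma to Ciita, 3 had an unadjusted p under 0.05 in the averaged nerve comparison (9.2% of all genes), all lower in NDE, with a list median of -0.04. DESeq2 called 1 of these 8 genes in that comparison, and limma-voom called 0. Irf1, a factor that acts on the interferon-responsive Ciita promoter, was at -0.20 (edgeR adjusted p = 0.311). Ifng itself held 2 to 18 counts per library and was not tested. The 7 factors of the X and Y boxes (Rfx5, Rfxap, Rfxank, Nfya, Nfyb, Nfyc and Creb1) gave 0 calls by edgeR, DESeq2 or limma-voom in any comparison. In NT NDE against NT NC 1 of the 7 had an unadjusted p under 0.05 (10.4% of all genes). This was Rfxap, a subunit of the RFX complex, at 21.3 ± 0.206 CPM in NT NDE nodes, against 18.3 ± 1.37 CPM in NT NC nodes (log2 fold change 0.21, edgeR adjusted p = 0.411). Nfya, a subunit of the Y box factor NF-Y, stood at 113 ± 2.92 CPM in NT NDE nodes, against 105 ± 3.87 CPM in NT NC nodes, a log2 fold change of 0.10 (edgeR adjusted p = 0.484). NT NC had the lowest mean of the 4 groups for Rfxap and Nfya. In T NC against NT NC Rfxap was at 0.20 (edgeR adjusted p = 0.618) and Nfya at 0.10 (edgeR adjusted p = 0.647). There too 1 of the 7 factors had an unadjusted p under 0.05 (7.8% of all genes). In T NDE against T NC Rfxap was at -0.03 and Nfya at 0.02.

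Downstream of transcription, 9 genes of antigen processing gave 0 calls by edgeR, DESeq2 or limma-voom in any comparison. Ifi30, the lysosomal thiol reductase that opens disulphide bonds of antigens, stood at 253 ± 8.47 CPM in NT NDE nodes, against 214 ± 11.6 CPM in NT NC nodes, with a log2 fold change of 0.25 (edgeR adjusted p = 0.300). In that comparison 1 of the 9 genes had an unadjusted p under 0.05, against 10.4% of all genes. Ctss, the protease that makes the last cuts in the invariant chain, stood at 429 ± 4.73 CPM in T NDE nodes, against 492 ± 66.7 CPM in T NC nodes (log2 fold change -0.20, edgeR adjusted p = 0.834). In T NDE against NT NDE all 9 values of this list were negative, with a median of -0.09 and 0 at an unadjusted p under 0.05 (3.7% of all genes). Of 5 genes that govern class II at the surface, 0 were called in any comparison by the same tools. Among them Il10, a cytokine that lowers surface class II, stood at 0.800 ± 0.0613 CPM in T NDE nodes, against 1.56 ± 0.140 CPM in T NC nodes (log2 fold change -0.95, edgeR adjusted p = 0.728). These Il10 values rest on 14 to 18 counts per T NDE library and 29 to 36 per T NC library, so counting error is large. March1, the ubiquitin ligase that removes class II from the surface, stood at 133 ± 13.4 CPM in T NDE nodes, against 134 ± 12.6 CPM in T NC nodes (log2 fold change -0.02, edgeR adjusted p = 0.989). It was at -0.14 in T NDE against NT NDE, -0.11 in T against NT (edgeR adjusted p = 0.992) and 0.06 in NT NDE against NT NC.

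Receptors of class II gave negative values with nerve inhibition and no call. Of the 2 receptor genes, 2 had an unadjusted p under 0.05 in the averaged nerve comparison (9.2% of all genes). Cd4, the co-receptor that binds class II, stood at 227 ± 12.6 CPM in T NDE nodes, against 251 ± 22.2 CPM in T NC nodes, and at 244 ± 4.66 CPM in NT NDE nodes, against 271 ± 31.1 CPM in NT NC nodes (SD, n = 3 each). Its averaged log2 fold change was -0.15 (edgeR adjusted p = 0.457), and that of Lag3, an inhibitory receptor for class II, was -0.29 (edgeR adjusted p = 0.322). The T cell marker list lay on the same side: all 10 of its genes were negative in the same comparison, with a median of -0.16, 6 at an unadjusted p under 0.05 (9.2% of all genes), 0 called by edgeR or limma-voom and 1 (Cd28) by DESeq2. Its summed level was 1333 to 1443 CPM in T NDE, 1448 to 1709 CPM in T NC, 1331 to 1542 CPM in NT NDE and 1412 to 1712 CPM in NT NC, and its part in the receptor values was not tested. H2-Eb2, a further beta chain gene of the locus, was at -0.10 in the averaged nerve comparison (edgeR adjusted p = 0.746).

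Genes of MHC class I and of its peptide supply, which answer to another transactivator, Nlrc5, were set beside class II in T NDE against T NC. All 12 had negative log2 fold changes there, with a median of -0.14, against 6 negative of 10 class II members with a median of -0.02. Of the 12, 4 had an unadjusted p under 0.05 (5.83% of all genes) and 0 were called by edgeR, DESeq2 or limma-voom. B2m, the light chain of class I, stood at 1647 ± 34.7 CPM in T NDE nodes, against 1897 ± 152 CPM in T NC nodes, with a log2 fold change of -0.20 (edgeR adjusted p = 0.747). Psmb8, a subunit of the immunoproteasome, stood at 266 ± 17.7 CPM in T NDE nodes, against 307 ± 15.3 CPM in T NC nodes, likewise -0.21 (edgeR adjusted p = 0.705). Nlrc5 was at -0.15 there (edgeR adjusted p = 0.899). In T NC against NT NC 11 of the 12 class I genes were positive, with a median of 0.08, and in NT NDE against NT NC 5 were, with a median of -0.00527. No difference between the lists was tested.

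Across the 12 libraries the members varied together. Pearson's r of log2 CPM between members ran from 0.427 to 0.957 over 45 pairs, with a median of 0.763, and 44 pairs were above 0.5. Points of such a correlation share library, depth and scaling, and the values are a description. The mean of the 10 members was set against the mean of each of 16 other lists. It followed the 12 B cell markers most closely, with r of 0.928 (Spearman's rho 0.902), 0.952 for deviations from the group means, 0.906 in the 9 libraries without salivary transcripts, and 0.886 without T NDE replicates 1 and 3, the libraries farthest from the median of the B cell list. Against the dendritic cell list r was -0.637, against macrophages -0.456, against T cells -0.199 and against MHC class I 0.592. The class I value was 0.906 for deviations from the group means, but -0.0944 without T NC replicate 3 and T NDE replicate 3, so the value over 12 libraries rests on those libraries.

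The B cell list summed to 4183 to 5835 CPM in T NDE, 4508 to 5504 CPM in T NC, 4730 to 5444 CPM in NT NDE and 4243 to 5320 CPM in NT NC. None of its 12 genes was called by edgeR in any comparison. In NDE against NC 10 of the 12 were positive, with a median of 0.08, 1 was at an unadjusted p under 0.05 (9.2% of all genes) and 1 was called by DESeq2. That gene was Cr2, a complement receptor, with an edgeR log2 fold change of 0.34 (adjusted p = 0.267), named after its values were seen. In NT NDE against NT NC 11 of the 12 were positive. Its lowest library was T NDE replicate 3, with a mean log2 CPM of 8.25, and that library was also the lowest for class II, with 8.98. After subtracting the B cell list, the SD of the class II mean over 12 libraries was 0.0659 on the log2 scale, against 0.109 before. For the core of H2-Aa, H2-Ab1, H2-Eb1 and Cd74 alone it was 0.101, against 0.108 before, with an r of 0.75 to the B cell list. How far B cell content sets the class II level was not tested beyond these values.

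**Figure D4:**
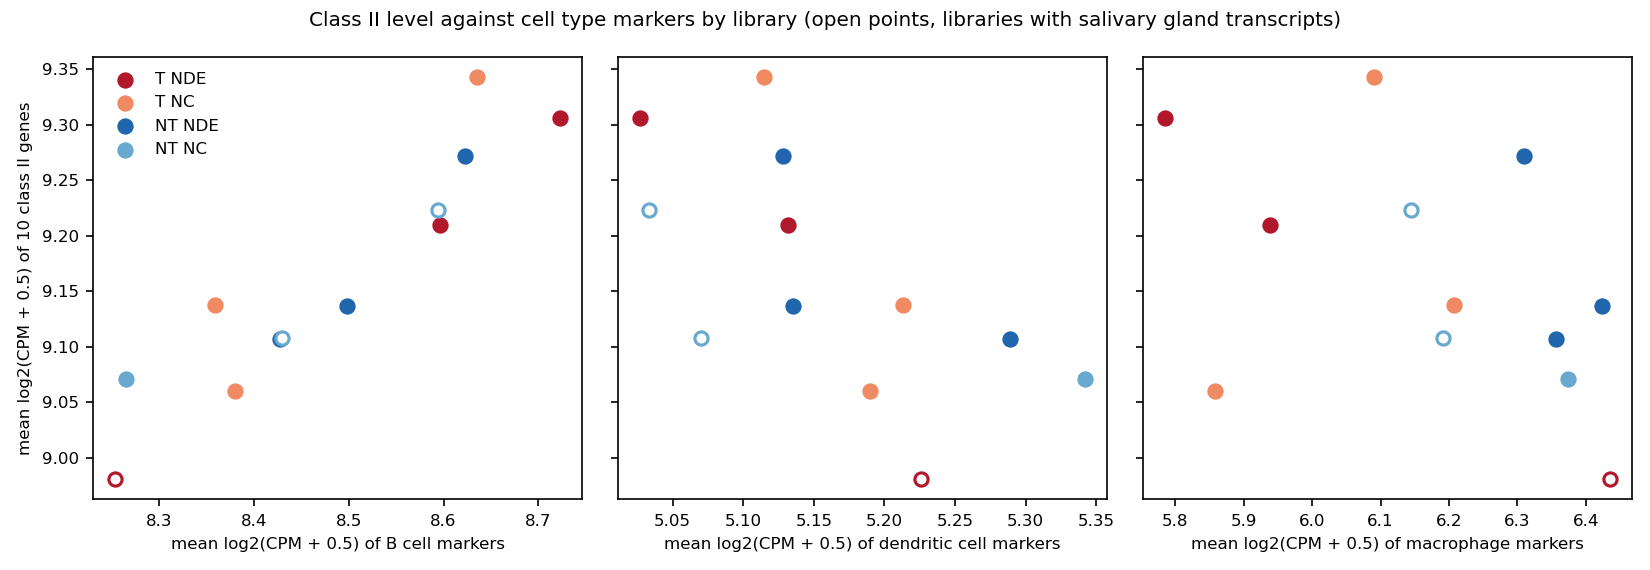
Mean log2 level of the 10 class II genes (vertical) against that of B cell, dendritic cell and macrophage markers (horizontal) in 12 libraries, coloured by group, with open points for the 3 libraries with salivary gland transcripts. Class II followed the B cell markers (r of 0.928) and not dendritic cell (-0.637) or macrophage markers (-0.456).

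Members differed in how closely they followed the B cell markers. H2-DMb2 had an r of 0.976, Ciita 0.937, H2-DMb1 0.868, H2-Ob 0.841 and H2-Oa 0.813. Cd74 had 0.787, H2-DMa 0.778, H2-Ab1 0.730, H2-Eb1 0.684 and H2-Aa 0.615. The classical chains were thus at the lower end, and the beta chains of H2-DM and Ciita at the upper end. H2-Aa and H2-Eb1 followed the MHC class I list more closely (r of 0.76 and 0.75), unlike the other members. For deviations from the group means, the mean of H2-Aa, H2-Ab1, H2-Eb1 and Cd74 had 0.924 to class I and 0.799 to B cell markers. Over libraries its class I value was 0.694, but 0.106 without T NC replicate 3 and T NDE replicate 3. Among 10349 genes of at least 10 CPM, those most like the mean of H2-Aa, H2-Ab1, H2-Eb1 and Cd74 included Cd79a (r of 0.924 over 12 libraries), a signalling chain of the B cell receptor, Fcmr (0.904), an IgM receptor, Mrps11 (0.888) and Cnn3 (0.887). Those most like Ciita were Snx30 (0.956), Bank1 (0.954), a B cell scaffold protein, Pax5 (0.945), the factor that maintains B cell identity, Cd22 (0.933), an inhibitory co-receptor of B cells, and Srpk3 (0.922).

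Ratios within a library do not depend on its depth. Counts of Cd74 over the summed counts of H2-Aa, H2-Ab1 and H2-Eb1, the invariant chain against the chains it escorts, were 0.654, 0.708 and 0.676 in T NDE, 0.639, 0.653 and 0.666 in T NC, 0.714, 0.668 and 0.676 in NT NDE, and 0.631, 0.654 and 0.637 in NT NC. All 3 NT NDE libraries were above all 3 NT NC libraries, while T NDE and T NC overlapped. Averaged over tumour state the ratio was 0.683 ± 0.0235 in NDE and 0.646 ± 0.0132 in NC (SD, n = 6 each), a difference of 0.0362. The exact two-sided permutation test gave p = 0.00649, where the smallest possible is 0.00216, and an adjusted p of 0.0779 over the 12 tests of ratios, so it did not pass the correction. The difference was 0.0370 without the 3 salivary libraries. Within tumour states it was 0.0267 in T NDE against T NC (exact p = 0.2) and 0.0458 in NT NDE against NT NC (exact p = 0.1, the smallest that 3 against 3 libraries allow).

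Counts of H2-DM genes over counts of H2-O genes, the editor against its inhibitor, were 0.738, 0.831 and 0.829 in T NDE, 0.791, 0.747 and 0.801 in T NC, 0.847, 0.787 and 0.781 in NT NDE, and 0.739, 0.688 and 0.778 in NT NC. NT NDE and NT NC again did not overlap, with means of 0.805 ± 0.0366 and 0.735 ± 0.0456 (SD, n = 3 each; exact permutation p = 0.1, adjusted p = 0.312). Averaged over tumour state the ratio was 0.802 ± 0.0411 in NDE and 0.757 ± 0.0419 in NC (SD, n = 6 each; exact permutation p = 0.104, adjusted p = 0.312). This ratio depends on counts of H2-DMb1 and H2-DMb2 together and so not on how reads were split between them.

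**Figure D5:**
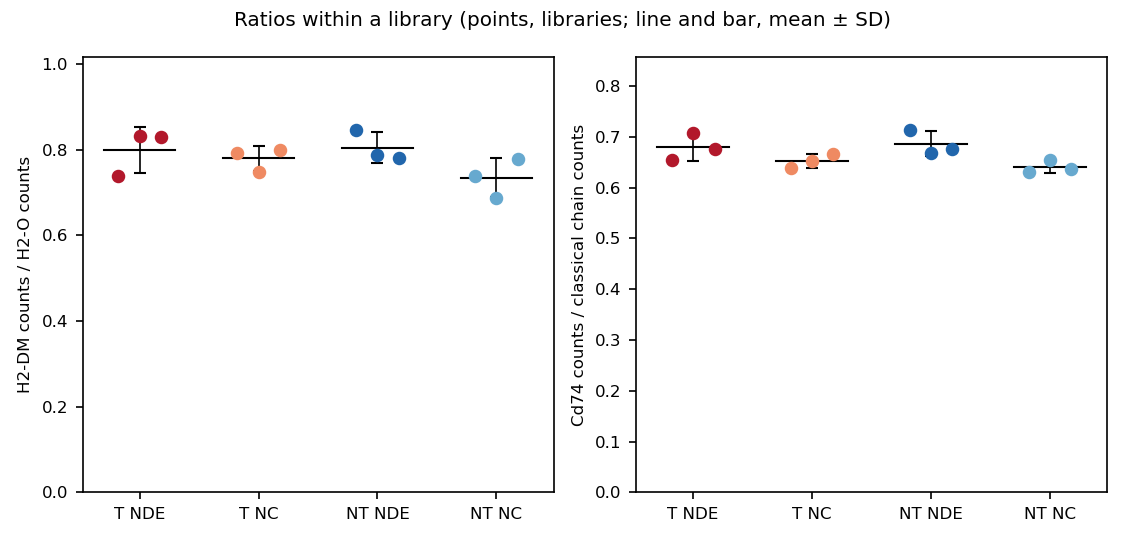
Ratio of H2-DM to H2-O counts (left) and of Cd74 to classical chain counts (right) in each library, with the mean and 1 SD of 3 libraries per group; both axes start at 0. NT NDE libraries lie above NT NC libraries in both panels, and T NDE overlaps T NC.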

How the data were processed

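Per the labels, node RNA was isolated by Trizol and sequenced as Illumina mRNA libraries. The deposited values are whole-number counts per gene for 12 libraries (55487 identifiers, 55141 with a symbol), which the authors did not normalize. HISAT2 2.0 and mm10 were used, per the submitters' processing notes. Not given in the sources used here are the read counter, the strand setting and the treatment of reads with several positions. Identifiers without a symbol took at most 0.0548% of counts. No libraries were identical.

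Counts were analysed with edgeR 4.0.16 in R 4.3.3: TMM factors (0.967 to 1.01), filterByExpr by group (minimum count 10, minimum total 15; 17301 genes kept), and a robust quasi-likelihood fit with 1 mean per group over all 12 libraries. P-values are two-sided, Benjamini-Hochberg adjusted over all tested genes within a comparison, with a threshold of 0.05. The fit was tested on simulated data. Levels are CPM with TMM factors; log2 means use a pseudocount of 0.5 CPM. The averaged comparisons are the means of both nerve and both tumour contrasts. Ratios were compared by exact permutation of libraries (SciPy 1.17.1); 3 libraries against 3 cannot give p under 0.1. A test of the summed class II share was planned and is not given, since it would be a test of a score over chosen genes. The edgeR p-values weigh a fitted difference against the spread between libraries. Those of the ratios rank the difference in means among all permutations of the libraries.

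All 10 members are named. Of each other functional list the genes past the threshold were to be named, and otherwise the 2 members with the smallest p; the 5 genes most like the core of 4 genes and most like Ciita were named by Pearson's r among genes of at least 10 CPM. Some genes these rules name are not reported here. Members, lists and tests were chosen with earlier results of these data known. Alternatives were DESeq2 1.42.0, limma-voom (limma 3.58.1), other scalings and filters, a replicate block, and fits without single libraries or without the 3 salivary libraries. Same-numbered libraries of different groups deviated together, with a correlation above 0.1, in 3 of 18 pairs, so the numbers were not taken to pair them. These were 0.517 for replicate 3 of T NDE and NT NC, both with salivary transcripts, 0.296 for replicate 1 of T NDE and NT NC, and 0.104 for replicate 1 of T NC and NT NDE. The cause of these values was not tested. Sequences are from RefSeq (GRCm38.p6).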

Additional observations from a re-analysis of the deposited data

How the results depend on the processing

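The 10 members gave 0 calls in any of the 7 comparisons under any alternative (1330 values recomputed, smallest adjusted p 0.384, log2 fold changes from -0.23 to 0.26). Their signs were not stable: 154 of these values changed sign, in 47 of 70 results, none of which exceeded 0.0738 in size as reported. The number of genes called over the whole table moved far more, so that the statement on members rests on their own values. Each member held at least 1724 counts in every library.

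Without the low count filter 4 genes were called in T NC against NT NC, 12 genes in T NDE against T NC, 43 genes in NT NDE against NT NC, 1 for the interaction, 41 in NDE against NC and 2 in T against NT. DESeq2 called 37 genes in T NC against NT NC, 44 genes for nerve inhibition with a tumour (T NDE against T NC), 126 without one (NT NDE against NT NC), 16 in T NDE against NT NDE, 43 for the interaction, 119 in NDE against NC and 6 in T against NT, and limma-voom called 5 in NDE against NC. Without the 3 salivary libraries the counts were 7, 1, 33, 28, 3, 49 and 66 in the same order, which leaves NT NC with 1 library assumed to vary like the rest. With a replicate block 3 genes were called in NT NDE against NT NC, 3 in T NDE against NT NDE, 1 for the interaction and 1 in NDE against NC, and 0 members in any comparison. Leaving out 1 library gave 0 to 3, 0 to 1, 0 to 7, 0 to 4, 0 to 2, 0 to 30 and 0 to 22 calls in the order of the DESeq2 counts. For NDE against NC the highest count, 30, was without T NDE replicate 1, and for T against NT the highest, 22, was without T NDE replicate 3.

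Without the 3 salivary libraries 21 of the 70 results on members changed sign, 4 of them in T NDE against T NC (H2-Ab1 to 0.0329, H2-Eb1 to 0.0066, Cd74 to 0.0620 and H2-Oa to 0.105) and 5 in T NDE against NT NDE. Among the 21 were Ciita in T NC against NT NC (0.15) and NT NDE against NT NC (0.14), H2-Ob in the same comparisons (0.0826 and 0.0595) and in T against NT (0.12), and H2-DMa in T NDE against NT NDE (0.0167). H2-Ob in T against NT was also positive without the low count filter (0.00115). In T against NT the H2-DM to H2-O ratio difference became -0.00684 and that of Cd74 to classical chains -0.00865. The cause was not tested.

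Leaving out 1 library, Ciita ranged from -0.13 to 0.0646 in T NC against NT NC, from -0.0774 to 0.14 with nerve inhibition in tumour-bearing mice, from -0.0801 to 0.0699 in tumour-free mice and from -0.0781 to 0.12 in T NDE against NT NDE. H2-Ob ranged from -0.12 to 0.0658 in T NC against NT NC, from -0.11 to 0.0514 in NT NDE against NT NC, from -0.0800 to 0.0516 in T against NT and from -0.0829 to 0.18 for the interaction. In T NDE against NT NDE H2-DMa ranged from -0.10 to 0.0103 and H2-Oa from -0.0280 to 0.18, and in T NDE against T NC H2-DMb2 from -0.0353 to 0.19. The Cd74 ratio difference ranged from -0.0214 to 0.00694 in T NDE against NT NDE and from -0.00595 to 0.0126 in T against NT, and the H2-DM to H2-O ratio difference from -0.0214 to 0.0253 in T NDE against NT NDE.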
